A study of Mus musculus with 12 samples.

Results

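Isolated CpGs inside short genes are single positions in the authors' deposited table of methylation differences that lie within a protein-coding gene span of at most 50 kb. A site was taken where the longest RefSeq GRCm38.p6 protein-coding span holding it was no longer than 50 kb, where no other row of the table lay within 100 bp, and where it fell in no gene-end window, meaning the 1000 bp before and the 100 bp after each border of a protein-coding or lncRNA span, counted into the gene. The rule used positions and gene spans and no measured difference. It took 440 of the 2798 rows, in 399 genes. In 231 of the 440 the nearest other row was more than 100 kb away.

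The assay was RRBS, reduced representation bisulfite sequencing, which enriches CpG-rich restriction fragments and reads unmethylated cytosine as thymine. The DNA was from splenic CD11c dendritic cells of female F1 C57BL/6 mice. In the maternal DEHP group (6 libraries) the F0 mothers had received the plasticiser DEHP over 10 days, at a daily dose of 37 µg per kg, and in the maternal corn oil group (6 libraries) they had received the vehicle. In both groups the fathers were naïve, the F1 mice are labelled as immunised with OVA, and the mice obtained for breeding were 6 to 8 weeks old. No age of the F1 mice is given.

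The files hold the authors' group comparison and no value per library. No spread between libraries, replicate check or test over samples could therefore be computed, the depth behind a site is unknown, and the values below are a description of the listed sites. The number of mothers and litters behind the 12 libraries is not stated. The titles are numbered in more than 1 way, with both groups in each, and the part of this in the results was not tested. A CD11c preparation can hold other cells than dendritic cells, and the tables hold no expression value by which its make-up could be checked. The table does not say which group was subtracted from which; a positive value, called a gain, is read here as more methylation with maternal DEHP than with maternal corn oil, and a negative value, called a loss, as less.

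In mammals, CpGs within the bodies of transcribed genes usually carry methyl groups, while CpG-rich sequence at active starts usually lacks them. Methylation within a gene body can lie at an internal start or an enhancer as well as in transcribed sequence. DNA methyltransferases place the mark and TET enzymes oxidise it. No exon map of this build was used, so a site is placed by its distance to the ends of the gene span and not as exonic or intronic.

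Of the isolated CpGs, 8 fell within a RefSeq start window, a stretch reaching from 250 bases before to 50 after an annotated start, and these lie inside the span of the gene. Their sequences show what a listed CpG looks like and where it sits relative to an internal start. They are written 5′ to 3′ on the strand of the transcript, from RefSeq GRCm38.p6, with the listed CpG in capitals.
Apoe, chr7:19698390-19698451, minus strand: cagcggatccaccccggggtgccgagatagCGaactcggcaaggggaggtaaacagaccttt
Apoe, chr7:19698645-19698706, minus strand: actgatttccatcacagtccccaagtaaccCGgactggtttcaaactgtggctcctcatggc
Lgalsl, chr11:20831085-20831146, minus strand: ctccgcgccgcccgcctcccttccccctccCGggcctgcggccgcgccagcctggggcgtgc
Gja3, chr14:57057776-57057837, minus strand: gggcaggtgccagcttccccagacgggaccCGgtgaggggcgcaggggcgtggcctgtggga
Tmem125, chr4:118543852-118543913, minus strand: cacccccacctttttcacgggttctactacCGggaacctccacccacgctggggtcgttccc
Meioc, chr11:102665578-102665634, plus strand: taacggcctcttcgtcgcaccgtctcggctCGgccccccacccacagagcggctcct
4921507P07Rik, chr6:50596582-50596643, minus strand: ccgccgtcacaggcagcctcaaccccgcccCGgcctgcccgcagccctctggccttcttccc
Gm32352 (within Wfdc1), chr8:119666605-119666666, minus strand: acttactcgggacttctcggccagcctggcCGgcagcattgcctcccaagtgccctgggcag

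These windows also served to check the coordinates. Of all 2798 rows, 74 lay in such a window, and in 74 of 74 the base at the listed position and the next one read CG on the plus strand. The letters CCGG, which is the same on both strands and is the site of MspI, the enzyme commonly used for RRBS, enclosed the listed CpG in 27 of these 74 rows and in 6 of the 8 isolated CpGs. The labels do not name the enzyme. CCGG was present anywhere in the window in 52.8% of all 32851 RefSeq windows of 300 bases. This counts windows and not CpGs enclosed by CCGG, so it is no like measure for the listed CpGs.

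Apoe, which encodes the lipid carrier apolipoprotein E, held 2 of these CpGs within its span of 5.07 kb on chromosome 7 (19696244 to 19701310). In the authors' deposited table the CpG at 19698420 had a difference of -31.7 percentage points and that at 19698675, 255 bp away, one of 27.9 points. They lay 23 and 55 bases before different annotated starts of the gene. Neighbouring CpGs near internal starts of this gene thus had opposite signs. Lgalsl, a galectin-like gene, had a difference of -26.9 points 8 bases before an annotated start, and Gja3, a lens gap junction connexin, one of -25.5 points 84 bases before a start. Tmem125 had 28.4 points 157 bases before a start. Meioc, a meiosis gene, had -26.6 points 23 bases after one, and the site in Wfdc1, which encodes a secreted protease-inhibitor-like protein, had -33.6 points 136 bases before a start of Gm32352. The predicted gene 4921507P07Rik held the remaining one, with 28.6 points 23 bases before a start.

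Of the 440 isolated CpGs, 209 had a positive difference (47.5%) and 231 a negative one, beside 48.4% positive and 51.6% negative over all rows of the authors' deposited table. The median was 28.5 points among the positive and -28.7 among the negative sites, and the range was -56.6 to 55.0 points, beside -56.87 to 58.52 points over all rows. Most lay close to the table's minimum of 25 points. At least 30 points were reached by 164 sites (37.3%), beside 39.4% of all rows, and at least 40 points by 23 sites (5.23%), beside 5.43% of all rows. The median absolute difference was 28.5 points, beside 28.7 over all rows. The shares and medians were thus near those of the whole table.

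Isolated CpGs inside longer genes, chosen by the same rule with a longest span over 50 kb, numbered 635, of which 47.6% were positive, with a median absolute difference of 29.3 points and 43.1% at 30 points or more. Isolated CpGs outside coding spans numbered 1035, of which 50.3% were positive, with a median of 28.1 points and 33.8% at 30 points or more. No test over samples was possible, so these values are set side by side only. The deposited p-value was 0 in 330 of the 440 sites in short genes (75.0%), as in 74.1% of all rows, and the largest q-value was 3.62e-05, at Cd27, which encodes a costimulatory receptor of lymphocytes.

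**Figure D1:**
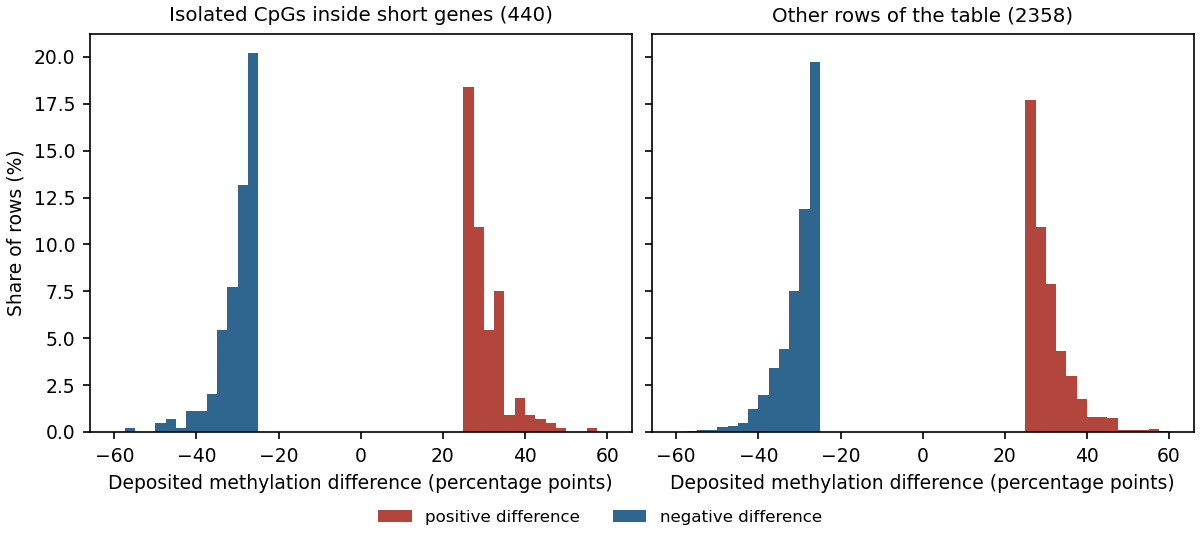
Deposited methylation difference in percentage points (x axis, bins of equal width) against the share of rows in percent (y axis) for the 440 isolated CpGs inside short genes and the other 2358 rows. Both panels are densest next to 25 points on either side and thin out with size, to 55.0 and -56.6 points in the panel of isolated CpGs.

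Among these 440 sites of the authors' deposited table the largest gain was at Evx2, an even-skipped homeobox gene beside the Hoxd cluster, with 55.0 points at 74658710 on chromosome 2 (span 74652989 to 74661520). The site lay 2810 bp from the 5′ end of the gene. The second was at Shcbp1l, with 49.0 points, followed by Ralb, a Ras-like small GTPase, with 46.8 points. Asb7, an ankyrin repeat and SOCS box protein of a ubiquitin ligase, had 45.6 points. Tnfrsf9, which encodes the costimulatory receptor CD137 (4-1BB), had 43.7 points at 150924166 on chromosome 4. Its site was 338 kb from the next row and 4011 bp from the 5′ end of the span (150920155 to 150946104). The other gains among the largest 12 were Sbk1, a serine/threonine kinase (43.1 points), Akr1d1, a steroid 5-beta-reductase of bile acid synthesis (43.0 points), Tbx3, a T-box factor of limb and heart (41.9 points), and Wnt6, a secreted Wnt ligand (41.8 points). Lmna, the gene of lamins A and C in the nuclear envelope, had 41.2 points, Sod3, the extracellular superoxide dismutase, 40.6 points, and Mtss2, a membrane-bending protein that binds actin, 39.5 points.

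The largest loss among the 440 sites, also per the authors' deposited table, was at Zfp628, a zinc finger gene, with -56.6 points at 4921567 on chromosome 7. This position also lies in the span of Nat14, so it cannot be given to 1 gene. Daglb, a diacylglycerol lipase that forms the endocannabinoid 2-arachidonoylglycerol, had -48.8 points at 143472145 on chromosome 5. Matn4, a matrilin of the extracellular matrix, had -48.7 points at 164393492 on chromosome 2, and the predicted gene Gm34653 had -46.2 points. Then came Fam222a (-46.1 points) and Shcbp1l (-45.4 points), which is also among the gains. Inhbc, the inhibin beta C subunit, had -43.2 points, and Tubb4a, a beta-tubulin, -41.8 points. Ncf1, the p47-phox subunit of the NADPH oxidase of phagocytes, had -41.7 points at 134222172 on chromosome 5. Brat1, which binds BRCA1 and ATM, had -40.8 points, Wdr46, a nucleolar protein, -40.1 points, and Nfe2l3, a bZIP transcription factor, -40.1 points. At 40 points or more, 11 sites were gains and 12 losses.

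Of the 399 genes, 359 held 1 site, 39 held 2 and Fam222a held 3. Among the 40 genes with more than 1 site, 30 had both a gain and a loss, 6 had gains alone and 4 had losses alone. In 34 of them the sites lay within 1000 bp of each other. Sites this close share their sequence context and are not independent observations.

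Fam222a, with a span of 45.0 kb on chromosome 5, had differences of -31.0, 37.7 and -46.1 points in the authors' deposited table at 114611247, 114611755 and 114611879. The sign changed between each site and the next, within 632 bp near the 3′ end of the gene. Shcbp1l had -45.4 and 49.0 points at sites 169 bp apart, and Akr1d1 -34.1 and 43.0 points at sites 215 bp apart. At Asb7 the differences were 45.6 and -29.8 points over 117 bp, and at Ralb 46.8 and -27.0 points over 115 bp. Nfe2l3 (29.7 and -40.1 points, 139 bp) and Brat1 (-40.8 and 28.6 points, 137 bp) completed the 6 genes with 2 sites of the largest mean size. In each of these 6 genes the CpGs differed in sign, and the gain or loss of 1 site was not shared by its neighbour.

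Counting adjacent sites within 1000 bp, 35 pairs had both sites among the isolated CpGs, and in 27 of them (77.1%) the signs were opposite. Over all rows, 178 adjacent pairs were more than 100 and up to 1000 bp apart, and 145 of these (81.5%) had opposite signs. These include the pairs with an isolated CpG of a short gene. In pairs with at least 1 such CpG 32 of 46 (69.6%) were opposite, and in pairs without one 113 of 132 (85.6%). Opposite signs were thus the more frequent in both. The share was lower where an isolated CpG of a short gene was involved, which was not tested. Pairs without one can hold isolated CpGs of longer genes or outside coding spans, so this is no comparison by isolation. In the 11 pairs of 1 isolated CpG of a short gene and another row, 5 were opposite. Of the 35 pairs from the authors' deposited table, 28 were 110 to 180 bp apart, a band taken over from earlier results of these data. Of the 28, 23 were opposite (82.1%), beside 118 of 134 (88.1%) over all rows. In pairs without an isolated CpG of a short gene it was 94 of 103 (91.3%). At other distances 4 of 7 pairs were opposite. The lower coordinate held the gain in 15 of the 27 opposite pairs and the loss in 12. The absolute sum of both differences in an opposite pair was between 0.124 and 19.8 points, with a median of 6.64 points over the 27. At Lhfpl4 the values were 30.6 and -30.7 points. Each value is at least 25 points in size by the construction of the table, which limits how far the sizes in a pair can differ. Pairs with 1 sign were Gbx2 (30.6 and 31.9 points), Clptm1 (28.2 and 31.3), Scoc (26.3 and 34.0), Dusp9 (25.6 and 28.8) and Lipe (29.1 and 26.8) with gains. Celsr2 (-32.5 and -27.4 points), Dvl1 (-29.9 and -27.8) and Gprin1 (-29.9 and -31.0) had losses.

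**Figure D2:**
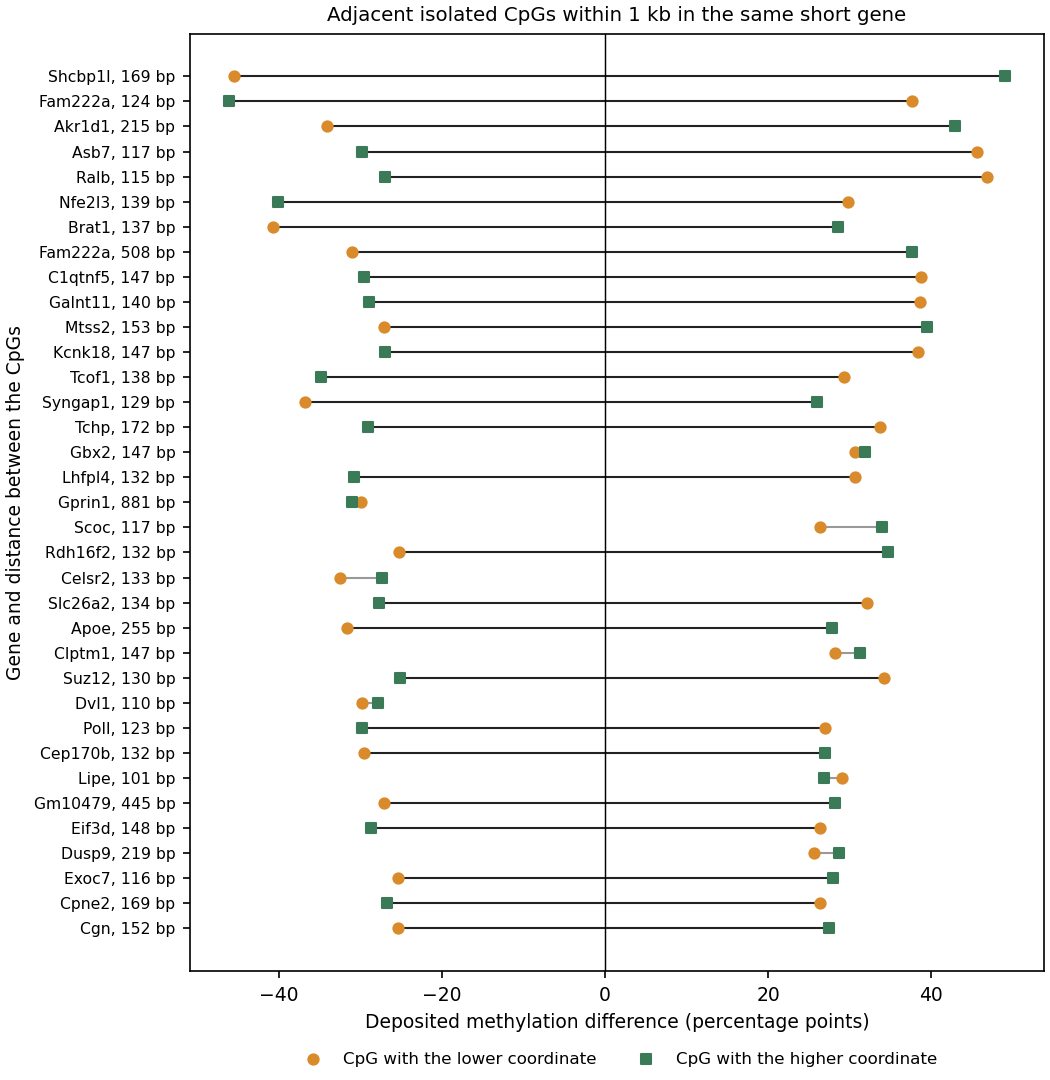
Deposited methylation difference in percentage points (x axis) of the 35 pairs of adjacent isolated CpGs within 1000 bp in a short gene, each labelled with its gene and distance in bp (y axis). Circles mark the CpG with the lower coordinate and squares that with the higher one, and lines cross 0 in 27 pairs.

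With the 79 sites that had another row within 1000 bp left out, 361 isolated CpGs remained. Of these 47.4% were positive, with a median absolute difference of 28.3 points, and 130 reached 30 points. Among the 79 sites themselves 48.1% were positive, the median was 29.5 points and 43.0% reached 30 points. Beyond 1000 bp, 6 genes held 2 sites, and 4 of these genes had both signs in the authors' deposited table. One was Foxa3, a forkhead factor of liver and gut, with -31.9 points at 19014697 and 29.6 points at 19021066 on chromosome 7. Col11a2, a cartilage collagen, had -27.1 and 33.4 points 13006 bp apart.

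The outer parts of the span held more of the isolated CpGs in short genes than the parts between. RefSeq windows gave the strand for 361 of the 440 sites, in 325 genes. Of these 361, 104 (28.8%) lay in the 20% of the span next to the 5′ end and 91 (25.2%) in the 20% next to the 3′ end, against 50 (13.9%), 57 (15.8%) and 59 (16.3%) in the parts between, counted from the 5′ side. In longer genes the same shares were 22.7%, 17.3%, 16.4%, 17.9% and 25.8% of 481 sites. From the 5′ to the 3′ side, 52, 27, 26, 20 and 43 of the sites in short genes were positive. Which CpGs were covered along these genes is unknown, so the shares describe the listed sites and not the chance that a CpG is listed.

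**Figure D3:**
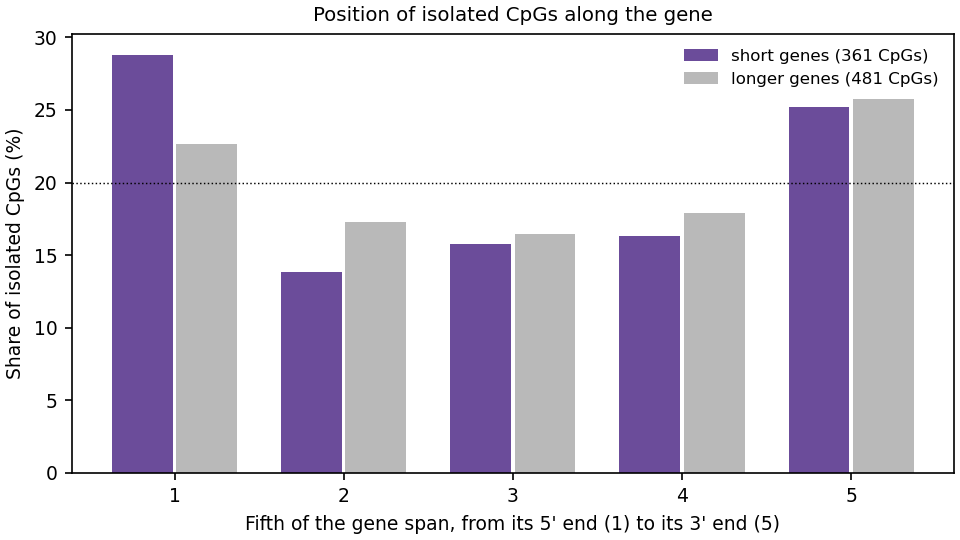
Share of isolated CpGs in percent (y axis) in 5 equal parts of the gene span from the 5′ to the 3′ end (x axis), for 361 CpGs in short genes and 481 in longer genes with a known strand. The dotted line is the 20% of an even spread; the outer parts stand above it and the inner parts below it in both sets.

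Within 1000 bp of the 5′ end lay 53 of the 361 sites, 29 of them gains, beside 48.4% gains over all rows. Foxd3, a forkhead factor of the neural crest, had a difference of 28.8 points 104 bp into the gene, per the authors' deposited table. Oasl1, a 2′-5′-oligoadenylate synthetase-like gene of the interferon response, had a difference of -38.4 points 300 bp into its span. Cd22, an inhibitory receptor of B cells, had a difference of -25.9 points at 640 bp, and Spib, an ETS factor of B cells and plasmacytoid dendritic cells, a gain of 26.8 points at 981 bp. Within 1000 bp of the 3′ end lay 26 sites, 11 of them gains.

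The genes that held an isolated CpG had a median span of 18.9 kb, beside 11.0 kb for all 16955 protein-coding genes of at most 50 kb. Of those genes, 2.35% held an isolated CpG. The share was 0.555% for spans up to 5 kb, 1.97% for 5 to 10 kb and 3.14% for 10 to 20 kb. It was 3.32% for 20 to 30 kb and 4.18% for 30 to 50 kb. A longer span offers more CpGs, and the number covered per gene is unknown. The RefSeq start windows of the genes with an isolated CpG held a median of 18 CpGs and CCGG in 77.9% of windows. For short genes without one these values were 11 CpGs and 58.8%, and for all coding genes 13 CpGs and 62.2%. Gains were 20 of 30 sites in spans up to 5 kb, 23 of 60 at 5 to 10 kb and 62 of 136 at 10 to 20 kb. They were 41 of 93 at 20 to 30 kb and 63 of 121 at 30 to 50 kb, beside 48.4% of all rows.

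On the X chromosome, where females inactivate 1 copy and methylate many CpG-rich starts on it, 19 isolated CpGs lay in 18 genes. Of these, 12 were gains and 7 losses, from -34.6 points at Ccdc120 to 31.1 points at Magea2 in the authors' deposited table. Of these sites 12 of 19 (63.2%) were within 1000 bp of an end of the span, beside 82 of 421 (19.5%) on autosomes. The median span behind the sites was 11.3 kb on the X chromosome and 19.8 kb on autosomes. Among the 12 were 10 gains, namely at Atp6ap2, a proton pump accessory subunit (29.98 points), Rbmx2 (25.4 points), Mospd1 (30.2 points), Dusp9, a phosphatase of MAP kinases (25.6 and 28.8 points), Pnck, a calmodulin kinase (29.1 points), Cstf2, a subunit of the cleavage stimulation factor (26.9 points), Tro (29.5 points), Magea2 (31.1 points) and Siah1b, a ubiquitin ligase (25.8 points). The 2 losses there were AA414768 (-29.0 points) and Pdzd4 (-25.9 points). Of all 233 X-linked rows, 44.2% were positive. These X-linked comparisons were noticed in the data and have no test.

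The share of short genes with an isolated CpG differed between chromosomes. It was 4.36% on chromosome 5 (41 of 941 genes) and 0.311% on chromosome 14 (2 of 644 genes), beside 2.35% over all. Chromosome 5 also had the most sites in the authors' deposited table (47), of which 22 were gains. On chromosome 7 there were 44 sites in 2.20% of its short genes, and in 2.87% once odorant and vomeronasal receptors were taken from the denominator. None of the 1473 short olfactory and vomeronasal receptor genes, each named by a shared symbol prefix, held an isolated CpG. Losses were 7 of 8 sites on chromosome 13 and 20 of 29 on chromosome 17, while gains were 9 of 14 sites on chromosome 6 and 9 of 14 on chromosome 12, beside 51.6% losses over all rows. The X chromosome was at 2.40%.

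**Figure D4:**
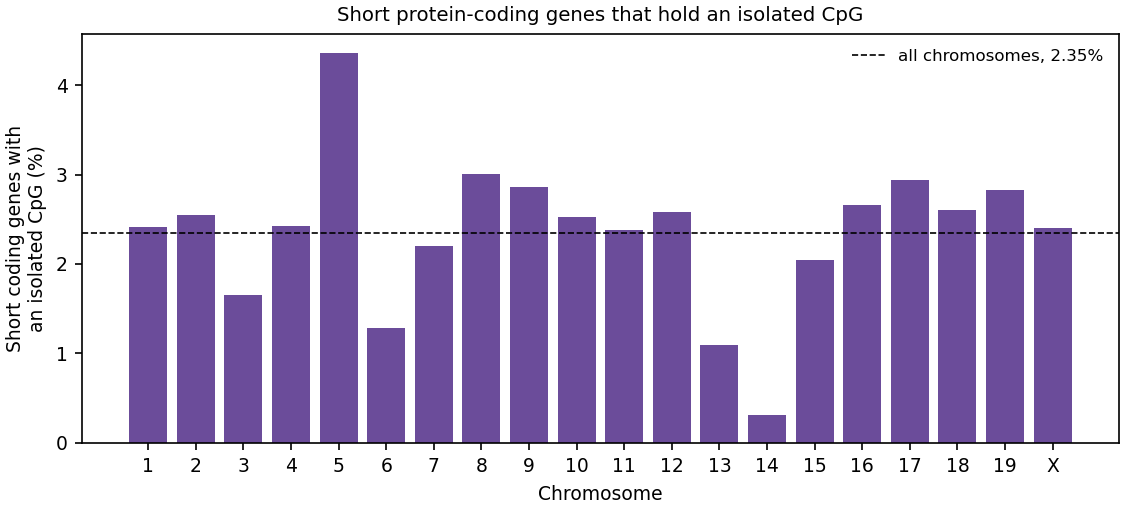
Share of protein-coding genes of at most 50 kb that held an isolated CpG, in percent (y axis), by chromosome (x axis). The dashed line is the 2.35% over all chromosomes; chromosome 5 stands highest at 4.36% and chromosome 14 lowest at 0.311%.

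Of 43 short genes of dendritic cells and antigen presentation, 3 held an isolated CpG (6.98%, beside 2.35% of all short genes). Fscn1, the actin-bundling fascin of mature dendritic cells, had a gain of 36.3 points in the authors' deposited table, at 142969883 on chromosome 5. H2-DMb1, a subunit of the complex that loads peptides on MHC class II, had a difference of -34.2 points, 355 bp from the end of its span at 34159874 on chromosome 17. Cd80, a costimulatory ligand, had a difference of -25.2 points. The signs were therefore mixed among the 3.

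Of 158 short cytokine, chemokine and receptor genes, 2 held an isolated CpG (1.27%). They were Tnfrsf9 with the gain named above and Il15ra, the interleukin-15 receptor alpha chain, with a difference of -27.6 points in the authors' deposited table. Of 88 short innate sensor and interferon genes 2 did (2.27%), namely Oasl1 with its loss named above and Nod1, a cytoplasmic sensor of bacterial peptidoglycan, with a gain of 27.9 points. Markers of other cells of the spleen gave 2 of 16 B cell genes (12.5%, Cd22 and Spib, named above) and 2 of 31 T and NK cell genes (6.45%). They also gave 1 of 32 macrophage, monocyte and neutrophil genes (3.1%) and 0 of 21 erythroid and platelet genes, beside 2.35% of all short genes. A share above that of all short genes was therefore not particular to the dendritic cell list. Prf1, the pore-forming perforin of cytotoxic cells, had a difference of -33.8 points. Tbx21, the T-bet factor, had a gain of 27.2 points, and Siglec1, the macrophage receptor CD169, one of 25.4 points. In B cell and T and NK cell markers 1 site was a gain and 1 a loss each, and whether the make-up of the preparations differed between the groups was not tested.

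Homeobox and patterning transcription factors held isolated CpGs in 10 of 214 short genes (4.67%), with 12 sites, 8 of them gains. Earlier results of these data had already shown called sites at several of these genes, so the count is a description. Besides Evx2, Tbx3, Foxa3 and Foxd3, the authors' deposited table had gains at Pbx4 (37.7 points), Hoxb3 (34.2 points) and Gbx2, a factor of the midbrain-hindbrain boundary (30.6 and 31.9 points). Losses included Pitx1, a factor of the hindlimb (-25.8 points), and Hoxd3 (-26.6 points), whose site also lies in the span of Hoxd4. Evx2, next to the Hoxd cluster on chromosome 2, and Hoxd3, within it, had opposite signs.

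Chromatin and DNA methylation regulators held isolated CpGs in 7 of 115 short genes (6.09%), 6 gains and 2 losses. In the authors' deposited table the Polycomb gene Suz12 (34.2 and -25.2 points over 130 bp) was among them, as were Kdm4a, a histone demethylase (33.1 points), Prdm14, a regulator of pluripotency and germ cells (31.6 points), and Prdm8 (27.1 points). Sirt4, a sirtuin of mitochondria rather than chromatin, had 32.7 points. Arid5a, an AT-rich interaction domain gene, had a difference of -26.4 points. No DNA methyltransferase or TET gene with a short span was among the 7.

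Nuclear receptors and their partners held isolated CpGs in 3 of 26 short genes (11.5%). They were Nr4a2, an orphan receptor (28.5 points), Nr2c1 (25.4 points) and Nr2f2, also called COUP-TFII (-26.5 points), in the authors' deposited table. Enzymes and other proteins of xenobiotic, steroid and lipid metabolism held them in 5 of 90 short genes (5.56%), with 4 gains and 3 losses. Besides Apoe these were Lipe, the hormone-sensitive lipase, with gains of 29.1 and 26.8 points near the 3′ end, Fasn, the fatty acid synthase, with 27.2 points, Hsd11b2, which inactivates glucocorticoids, with -32.5 points, and Fabp4, a fatty acid binding protein of adipocytes and macrophages, with -25.3 points. None of the 40 short imprinted genes and none of the 13 short neurotrophin and receptor genes held an isolated CpG.

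**Figure D5:**
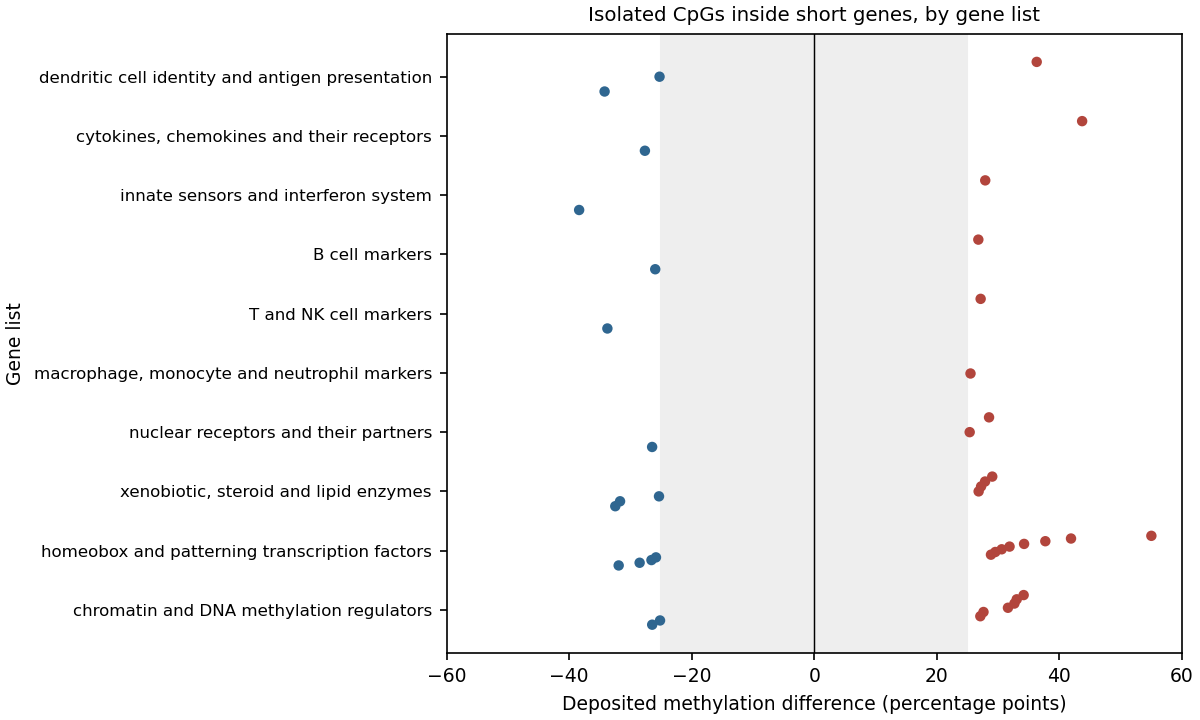
Deposited methylation difference in percentage points (x axis) of each isolated CpG in a short gene of 10 gene lists (y axis). Red points are positive and blue ones negative, the grey band is the range the table does not list, and the point farthest to the right is Evx2 at 55.0 points.

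Families defined by gene symbols, 17 in all, completed the account. Some that are not described further were below the 2.35% of all short genes. They were small GTPases and their regulators (0.971%), ubiquitin ligases and peptidases (1.70%), Tmem genes (1.98%), coiled-coil and repeat genes (2.01%) and tyrosine phosphatases (0 of 7 genes). Cadherins and integrins (5.66%), motor and cytoskeletal genes (4.06%) and neurotransmitter receptors (3.51%) were above it. Wnt, Fgf, Bmp, Notch and hedgehog genes held isolated CpGs in 10 of 98 short genes (10.2%), 4 gains and 6 losses. In the authors' deposited table the ligands Wnt6, Bmp8a (32.9 points) and Bmp2 (25.1 points) and the receptor Fzd9 (27.9 points) had gains. The ligands Inhbc, Wnt8b (-37.4 points), Gdf1 (-29.9 points), Wnt4 (-28.8 points) and Lefty2 (-26.5 points) and the receptor Fzd5 (-27.2 points) had losses. The sites of Gdf1 and Bmp8a also lie in the spans of Cers1 and Oxct2a.

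MAP kinase cascade and dual-specificity phosphatase genes held them in 7 of 62 short genes (11.3%), 5 gains and 3 losses. Dusp27 (34.3 points), Mapk6 (31.0 points), Dusp9 and Dusp8 (25.2 points) had gains in the authors' deposited table, and Map3k10 (-32.1 points), Mapk8ip3 (-31.0 points) and Dusp5 (-30.9 points) had losses. Collagen, laminin and matrix protease genes held them in 8 of 75 short genes (10.7%), 4 gains and 6 losses. Among these, Mmp17 had 34.7 points and Adam33 29.1 points, while Col9a2 had -30.8 and -27.4 points, Mmp28 -30.2 points and Col7a1 -29.6 points.

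Among other G protein-coupled receptors matched by gene symbol, 8 of 144 short genes (5.56%) held an isolated CpG, and 7 of the 8 sites were losses. In the authors' deposited table they were at Gpr179 (-38.2 points), S1pr5, a sphingosine-1-phosphate receptor (-36.8 points), Gpr4, a proton sensor (-32.0 points), Gpr161 (-28.7 points), Ptger4, a prostaglandin E2 receptor (-27.2 points), Gpr83 (-26.3 points) and Adgrb2 (-25.4 points). Adgrl1, a latrophilin, had the gain (27.3 points). The matched symbols left out other receptors of this class. Of these, Crhr1 (34.2 points) and Hcar1 (29.7 points) had gains and Celsr2 had losses (-32.5 and -27.4 points). Fzd9 and Fzd5, counted above, had a gain and a loss. The 7 of 8 losses therefore hold for the matched symbols only. Potassium, sodium, calcium and chloride channels matched by symbol had 5 losses and 1 gain in 5 of 101 short genes (4.95%). Both signs were at the potassium channel gene Kcnk18 (38.4 and -26.9 points). Channel genes that the symbols left out had gains at Best1 (28.5 points), Grin1 (27.8 points) and Scnn1a (25.8 points). Losses among those left out were at Htr3a (-25.9 points) and Catsperd (-25.7 points). The split is therefore not one of all ion channels. Zinc finger genes held isolated CpGs in 8 of 434 short genes (1.84%), 4 gains and 4 losses, and solute carriers in 8 of 274 (2.92%), 6 gains and 4 losses. Over all short genes the share that held a site moved with span length, as given above, and the part of span length in the shares of families and lists was not tested.

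A CpG at Hoatz lay beside the miRNA genes Mir34b and Mir34c. It had a difference of 39.3 points at 51104041 on chromosome 9 in the authors' deposited table, 396 bp from the Mir34b hairpin and 931 bp from that of Mir34c, and its position also lies in the span of Btg4. In all, 5 isolated CpGs lay within 1000 bp of a RefSeq miRNA hairpin, the nearest at Srrm2, with 25.2 points, 13 bp from Mir5125. Mature miRNAs from the hairpins beside these 2 sites include the following, shown with the seed, bases 2 to 8, in capitals, from RefSeq GRCm38.p6.
mmu-miR-34b-5p: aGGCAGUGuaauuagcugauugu
mmu-miR-34b-3p: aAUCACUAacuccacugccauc
mmu-miR-34c-3p: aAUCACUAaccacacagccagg
mmu-miR-5125: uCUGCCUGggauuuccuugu
Mir34c also gives mmu-miR-34c-5p. The 3p arms of miR-34b and miR-34c have the same seed. The sites at Tmem94 (-29.7 points, 285 bp from Mir5621), Mex3a (25.1 points, 405 bp from Mir1905) and Plppr3 (32.7 points, 731 bp from Mir6910) were the others. These sites were sought after the values were seen, and no share over all rows is given beside their count.

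At the limits of the rule, the 3 members with the longest spans were Nr2c1 (49.7 kb, 25.4 points), Agap3 (49.9 kb, -30.9 points) and Rusc2 (49.9 kb, -25.4 points). Just beyond 50 kb the authors' deposited table had Ncs1 (50.3 kb, 33.0 points), Ass1 (50.4 kb, 25.01 points) and Dclk3 (50.5 kb, 28.7 points). Among the members with the nearest neighbouring row were both Lipe sites, neighbours of each other, and those left out just below the limit were Mmp23 (98 bp, -29.5 points) and both Fam107a sites (99 bp, 26.0 and 30.6 points). Nearest to a gene end were Foxd3 (104 bp), Htr3a (107 bp, -25.9 points) and Cbr3 (121 bp, 31.9 points), and left out were Tnfsf13b (94 bp, -36.1 points), Cblc (89 bp, -37.8 points) and Stmn4 (87 bp, -30.9 points).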

How the data were processed

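RRBS was made from 12 libraries, 6 of each group. Per the submitters' processing notes, methylKit and GRCm38 (mm10) were used; no source used here names the aligner, coverage minimum or test. Per the file headers, the authors' deposited table gives each position a methylation difference, a signed score in percentage points, with its p-value and q-value. It lists differences of at least 25 points, and its deposited hyper- and hypomethylated parts rebuild it exactly.

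Members were selected by position with Python 3.11.15, pandas 2.3.3 and the RefSeq gene table of GRCm38.p6; the selection was tested on simulated data. RefSeq start windows gave strand and sequence; they were held for 325 of the 399 genes. The gene of a site is its longest protein-coding span. Named are the 12 largest gains and losses, genes with 3 sites, the 6 genes with the largest pairs, members of 13 gene lists and sites at the limits of the rule; members of symbol families, genes near starts, X-linked genes and miRNA neighbours were named after their values were seen. Members and lists were chosen with earlier results of these data known. A few members that the rule would name are not reported here. No test was made, since no value per library was used.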

Additional observations from a re-analysis of the deposited data

How the results depend on the processing

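The share of gains stayed within the exact 95% binomial interval of the value (42.8 to 52.3%) under all 13 alternatives, and the share at 30 points or more within its interval (32.7 to 42.0%) under all 11 that could give it; these intervals treat sites as independent and cover no spread between libraries. With spans of at most 25 kb 268 sites were left, with a difference of at least 30 points 164 and with at least 40 points 23. The last pair of settings moved the median absolute difference to 33.5 and 43.2 points by their construction, and the share at 30 points has no value under them. Otherwise the number of sites was within 1.5 times of 440 in the other 10 alternatives, from 339 with gene ends drawn to 1000 bp inside to 655 with spans of at most 100 kb. A q-value under 0.001 could remove no site, because the largest q-value was 3.62e-05. That setting is counted among the 13, 11 and 10 alternatives above but could not move any value. No paired analysis was possible because the tables hold no value per library, and for the same reason no library could be left out. Depth is unknown, so the precision of a single difference cannot be given.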

Other observations

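Isolated CpGs in short genes lay close together along a stretch of chromosome 7, where 10 sites in 7 genes lay within 684 kb, from 19014697 to 19698675, at Foxa3, Gpr4, Vasp, Rtn2, Zfp296, Clptm1 and Apoe. Of them, 6 were gains and 4 losses in the authors' deposited table. This stretch of up to 1000 kb was chosen for its number of sites.

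Of the 440 sites, 15 lay in 2 protein-coding spans at a time, beside 45 of all 2798 rows. In the span of a lncRNA gene also lay 19 of the 440, such as Hoxb3 with Hoxb3os and Ncf1 with LOC115490142. Over all 2798 rows it was 274. For isolated CpGs it was 31 of 635 in longer genes and 155 of 1035 outside coding spans. The rule leaves out sites at lncRNA ends, so all rows are no like measure, and the difference was not tested. Of the 19 sites in short genes that also lay in a lncRNA span, 8 were gains (42.1%), beside 48.4% of all rows. Predicted or uncharacterised genes held 19 sites, 11 of them gains (57.9%), beside the same 48.4%. These sites lay in 18 of the 1795 short genes with such a symbol, beside 399 of all 16955 short genes.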
